A study of Mus musculus with 20 samples.

Results

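In a lymph node sort of antigen-experienced B cells, 97 cells that were collected in the gate for plasma cell precursors carried a germinal centre annotation, and they are described here against the 675 cells with the same annotations that were collected in the 2 germinal centre gates (dark zone and light zone). Members were all cells that the authors' deposited table of cells annotated as dark zone, light zone or returning from light to dark zone (called light-to-dark zone below) and that had been index-sorted in the pre-plasma gate. They made up 34.4% of the 282 cells of that gate (exact 95% binomial interval 28.9 to 40.3%, counting error only) and 97 of the 1367 cells of the series. By state, 63 of them were dark zone, 23 light zone and 11 in transit from light to dark zone. In the comparison group these numbers were 388, 250 and 37.

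The germinal centre is the structure inside a lymphoid follicle in which activated B cells are diversified and selected for affinity. In its dark zone B cells divide and acquire mutations in their antibody genes, and in its light zone they take up antigen and present it to follicular helper T cells on MHC class II. Cells that receive enough help can return to the dark zone or begin to differentiate into plasma cells, a change in which the transcription factors IRF4 and BLIMP-1 (encoded by Prdm1) silence the B cell programme, the class II transactivator among it, and XBP1 expands the secretory machinery.

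All cells were eYFP-positive B cells or plasma cells from lymph nodes of C57BL/6 mice immunised with the hapten-carrier antigen NP-KLH in Sigma Adjuvant System, taken on day 15 of the primary response, 4 days after a tamoxifen gavage. Single cells were sorted into 96-well plates with their fluorescence recorded and processed by FB5P-seq, which reads the 5′ end of polyadenylated transcripts and the antigen receptor of each cell. The 20 plates fall into the sampleIDs C57BL/6F and C57BL/6M, 10 plates each. The letter F or M of a plate is the entry of the deposited column Sexe. Differences between the sampleIDs therefore cannot be told apart from differences between the sexes that this column names. The labels used here name neither the driver of the eYFP reporter nor the animals, their ages or how many were pooled on a plate, so p-values over plates measure the spread between plates, which may be technical. The 1367 cell barcodes of the matrix were all distinct.

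Members came from every plate, with 2 to 9 on each. They made up between 11.8% and 64.3% of the pre-plasma gate cells of a plate, with a median of 29.0%. In C57BL/6F the share was 46 of 129 cells, and in C57BL/6M it was 51 of 153. Nearly all remaining cells of the gate were annotated plasma (128), activated pre-plasma (29) or memory-like pre-plasma (27). Within the members the dark zone state made up 64.9% (54.6 to 74.4%), against 77.6% among cells sorted as dark zone, 39.3% among those sorted as light zone and 57.5% over both. The light-to-dark zone state made up 11.3% (5.80 to 19.4%) against 5.48% (3.89 to 7.48%). Since the number of cells sorted per gate was set at the sorter, the mix was not tested.

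Depth varied widely among the members. Counts per cell ran from 293 to 674758 with a median of 70915, against 261 to 632736 with a median of 53312 in the germinal centre gates. Of the members, 13 of 97 (13.4%) had under 1000 counts, against 12 of 675 (1.78%). This was uneven between states, as 8 of the 23 light zone members were that shallow, compared with 6 of 250 light zone cells of the germinal centre gates. To match state and bring depth closer, each member was paired with the nearest cell in total counts of the same plate and the same state from the germinal centre gates. This gave 94 pairs with median totals of 69665.5 and 58515.5 counts, so depth was similar but not equal, of which 86 on 16 plates entered the test of genes, 57 of them dark zone pairs, 20 light zone pairs and 9 light-to-dark pairs. The total of the members' pool was 0.757 to 2.02 times that of the matched pool.

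The germinal centre annotation was first set against defining genes. Bcl6, the repressor that sets the germinal centre fate, had counts in 16.5% of the members, in 13.0% of the germinal centre gate cells and in 1.56% of the plasma cells of the same gate. S1pr2, the receptor that holds B cells in the follicle centre, had counts in 38.1% of the members and 37.8% of the germinal centre gate cells, against 10.2% of the gate's plasma cells. Prdm1, by contrast, had counts in 4 of 97 members and 2 of 675 germinal centre gate cells, against 43.8% of the gate's plasma cells. For these genes the shares among members lay nearer to those of the germinal centre gates than to those of the gate's plasma cells, as a description with no test. How the annotation was made is not given, and it may rest on the same transcripts. The shares therefore cannot check it independently. Of the T cell markers, Cd3g and Cd8a had no counts in any member and Cd3d, Trac and Cd4 had counts in 1 member each. Of the myeloid markers, Csf1r and Itgam had none, Fcer1g and Tyrobp had counts in 4 members each, and Lyz2 had counts in 20 of 97 members against 4 of 675 cells. The summed myeloid list ran from 22.3 to 1209 CPM (counts per 1e6 counts of a pool) over the pre-plasma gate pools. Over the others it ran from 0 to 778 CPM. Cst3, the 1 gene of that list abundant enough to test, had medians of 332 and 276 CPM. Lck, the 1 such gene of the T cell list, had medians of 122 and 279 CPM. It had counts in 14 of 16 pre-plasma gate pools and 15 of 16 others. The part of these transcripts in the results was not tested.

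The surface phenotype separated the members from cells of the same annotation. Plate medians of asinh-transformed fluorescence are given for the 17 plates with at least 3 cells in both groups. CD38, high on naive and memory B cells and low on mouse germinal centre cells, ran from 0.840 to 3.24 (median 2.10) in the members and from 0.194 to 0.401 (median 0.257) in the germinal centre gates. PSGL1, the selectin ligand, ran from 0.569 to 1.62 (median 0.784) against 0.0269 to 0.0444 (median 0.0347). CD138, the syndecan that marks plasma cells, ran from 0.604 to 1.37 (median 0.967) against 0.00282 to 0.242 (median 0.115). For these 3 markers the lowest plate of the members lay above the highest plate of the germinal centre gates. In matched cells of 16 plates this held for CD38 and PSGL1, while CD138 overlapped, at 0.481 to 1.37 against -0.0925 to 0.524. Gates are drawn on fluorescence, so these differences describe the gate and were not tested.

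**Figure D1:**
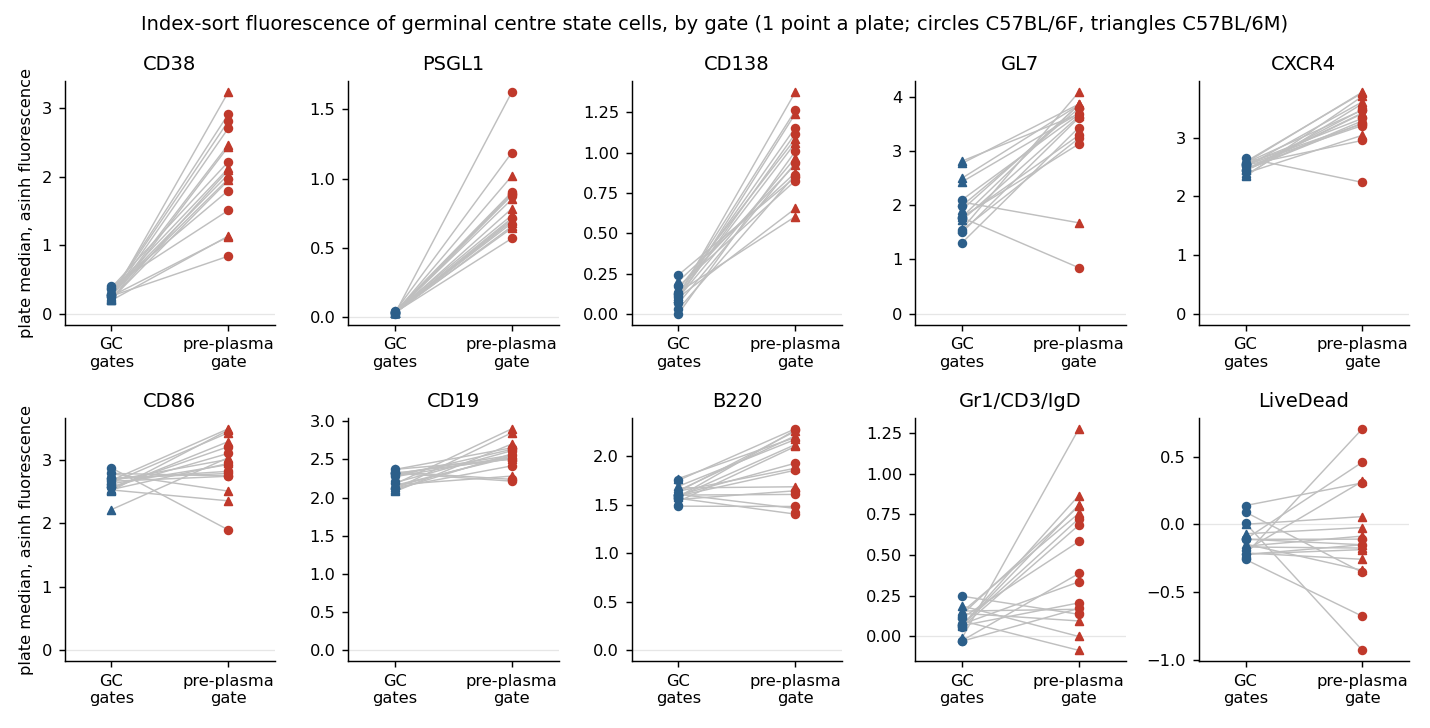
Plate medians of asinh-transformed index-sort fluorescence (y axis) for germinal centre state cells of the germinal centre gates and the pre-plasma gate (x axis), 1 point for each of 17 plates, with lines joining a plate. CD38, PSGL1 and CD138 do not overlap between gates, while GL7, CXCR4 and CD86 overlap.

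Germinal centre markers of the panel were also high on these cells. GL7, a glycan epitope of germinal centre B cells, had a median of plate medians of 3.67 in the members and 1.78 in the germinal centre gates, and was higher in the members on 15 of 17 plates. CXCR4, the chemokine receptor that draws cells into the dark zone, was higher on 16 of 17 plates, with medians of 3.41 and 2.504. CD86, the light zone costimulator, was higher on 13 of 17 plates, with medians of 2.95 and 2.64. Among the members, values by state are given without a test. The median CD38 value was 2.44 in the 63 dark zone cells, 1.97 in the light zone cells and 2.03 in the light-to-dark zone cells, and CD138 was 0.842, 1.22 and 0.826. Plasma cells of the same gate had medians of 0.862 for CD38 and 1.79 for CD138, and activated pre-plasma cells had 1.25 and 1.21. The channel shared by Gr1, CD3 and IgD was also higher in the members on 13 of 17 plates, with medians of 0.386 and 0.0742.

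To find out which transcripts differ between cells of the same state and plate and of similar depth, counts of matched cells were summed per plate and gate and tested with edgeR. The genes that fell in the members were Cd74 and H2-Ab1, both of MHC class II presentation, and no gene rose past the threshold. Cd74 encodes the invariant chain that occupies the class II groove until antigen is loaded, and H2-Ab1 encodes the beta chain of I-A. These 2 genes were 0.0387% of the 5168 genes tested by edgeR's quasi-likelihood test at a Benjamini-Hochberg adjusted p under 0.05. At an unadjusted p under 0.05, 122 genes were higher and 45 lower. DESeq2 on the same pools called 40 genes higher (0.839%) and 17 lower (0.357%), together 1.2% of 4767. With all germinal centre gate cells of 17 plates in place of matched ones, pools of 22 to 41 cells met pools of a few cells, and edgeR called 4 genes higher (0.0526%) and 1415 lower (18.6%; 18.6% in all) of 7609. Limma with a spread for each gate called 3 higher (0.0394%) and 128 lower (1.68%), together 1.72%. The median log2 fold change of all genes tested was 0.21 by edgeR in matched cells, against which the edgeR fold changes below are to be read. It was 0.11 by DESeq2, -1.94 by edgeR on all cells and -0.45 by limma on all cells. Calls of those fits are to be read against their own median.

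Cd74 ran from 2817 to 9266 CPM over the 16 pre-plasma gate pools (median 5314) and from 4407 to 14045 CPM over the 16 matched germinal centre gate pools (median 8884). It was lower in the members on 13 of 16 plates, although the ranges overlapped. The log2 fold change was -0.51 ± 0.08 (SE; adjusted p = 0.000473, edgeR). H2-Ab1 ran from 2406 to 8495 CPM (median 5054) against 3258 to 10476 CPM (median 7279) and was lower on 14 of 16 plates, again with overlapping ranges. Its log2 fold change was -0.51 ± 0.09 (SE; adjusted p = 0.00563, edgeR). Both genes were also called in each sampleID alone, Cd74 at -0.55 in C57BL/6F and -0.46 in C57BL/6M, and H2-Ab1 at -0.49 and -0.52. Restricted to dark zone pairs, the log2 fold changes were -0.19 for Cd74 and -0.17 for H2-Ab1 with an adjusted p of 1 by edgeR for both, and without the plate as a block neither was called.

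**Figure D2:**
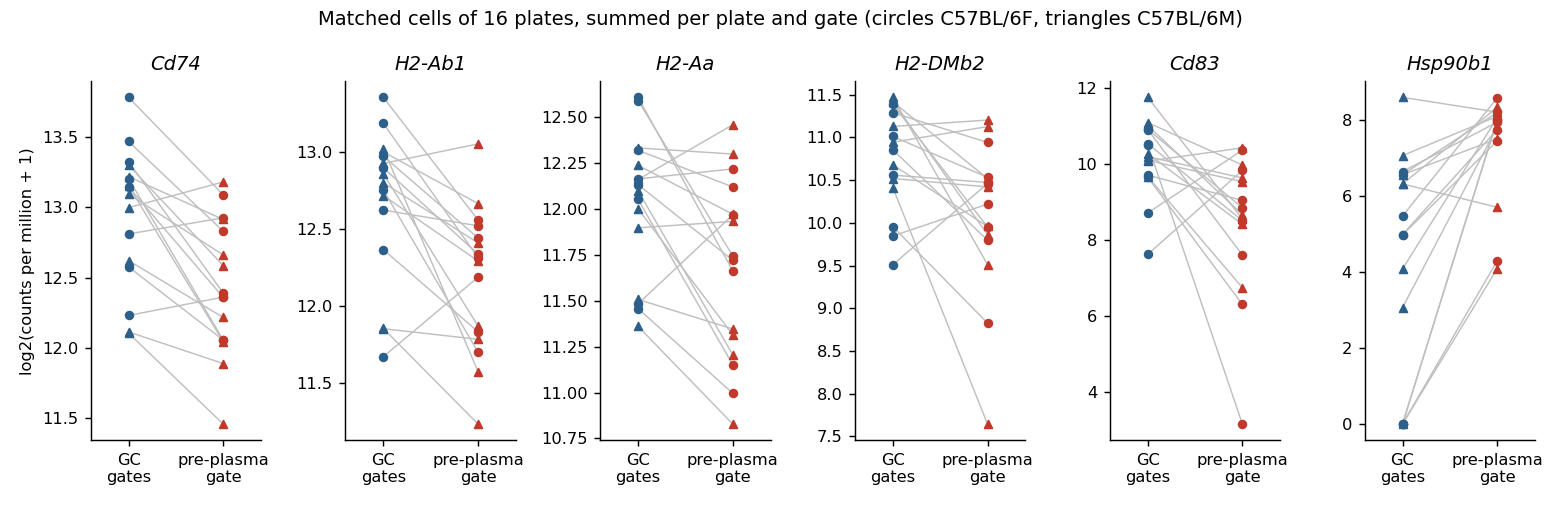
Level of 6 genes as log2(CPM + 1) (y axis) in matched cells summed per plate for the germinal centre gates and the pre-plasma gate (x axis), 1 point for each of 16 plates, with lines joining a plate. Cd74 and H2-Ab1 fall on 13 and 14 plates, and Cd83 and Hsp90b1 differ on most plates without passing the test.

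By state, the summed levels of Cd74 and H2-Ab1 were lower in the members in each of the 3 groups of pairs. In dark zone pairs the summed levels of H2-Aa (3770 against 4046 CPM) and H2-DMb2 (1483 against 1733 CPM) were also lower in the members. EdgeR over plates gave log2 fold changes of 0.01 there for both, beside -0.19 for Cd74 and -0.17 for H2-Ab1, none of them called. Over the 62 dark zone pairs the summed counts of Cd74 came to 6650 CPM in the members and 8257 CPM in the germinal centre gate cells, and the member had the lower value in 38 pairs. Over the 23 light zone pairs the levels were 5775 and 9132 CPM, and the member was lower in 16 pairs. Over the 9 light-to-dark zone pairs they were 2572 and 3651 CPM, with the member lower in 7 pairs. H2-Ab1 gave 5443 against 6784 CPM, 5163 against 8016 CPM and 2328 against 3314 CPM in the same order. Whether the gap differs between states was not tested. Among the other cells of the gate, the mean level per cell of Cd74 was 7319 CPM in plasma cells and 3315 CPM in activated pre-plasma cells, against 8305 CPM over the members and 13700 CPM over all germinal centre gate cells.

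All 12 genes of the class II presentation list were tested, and 2 fell and none rose. The median log2 fold change of the list was -0.36 against 0.21 over all genes, and 10 of its 12 members lay below 0. H2-Aa, the alpha chain of I-A, ran from 1817 to 5630 CPM in the members (median 3402) against 2627 to 6244 CPM (median 4438), with a log2 fold change of -0.34 ± 0.10 (SE; adjusted p = 0.774, edgeR). H2-DMb2, a chain of the peptide loading chaperone DM, had a log2 fold change of -0.67 ± 0.22 (SE; adjusted p = 0.841, edgeR). The summed level of the list was lower in the members on all but 2 of the 16 plates, from 11260 to 32255 CPM against 15515 to 37158 CPM, so the ranges overlapped. DESeq2 called 5 of the 12 genes lower, against 17 of 4767 (0.357%) over all genes.

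**Figure D3:**
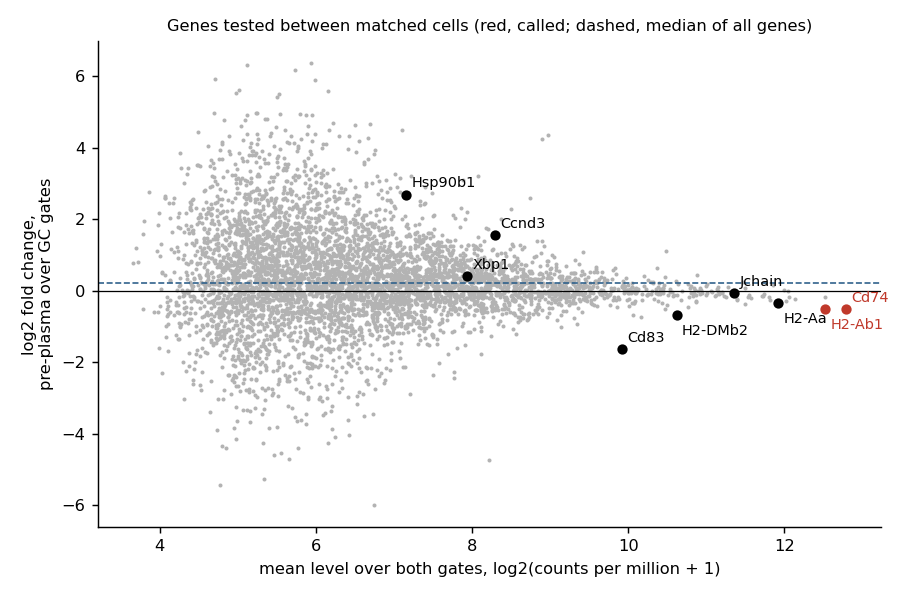
Log2 fold change of the pre-plasma gate over the germinal centre gates (y axis) against mean level as log2(CPM + 1) (x axis) for the 5168 genes tested in matched cells, each point a gene. The called genes Cd74 and H2-Ab1 (red) lie at the highest levels, low genes spread widely, and the dashed line marks the median of all genes at 0.21.

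Light zone activation genes did not pass the test by edgeR. The list had 16 of 23 members tested, with a median log2 fold change of -0.36 and 10 members below 0. Cd83, a light zone marker that stabilises class II and CD86 at the surface, ran from 7.99 to 1366 CPM in the members (median 432) and from 196 to 3425 CPM in the matched cells (median 1198). It was lower on 13 of 16 plates, with a log2 fold change of -1.63 ± 0.43 (SE; adjusted p = 0.412, edgeR). DESeq2 on the same pools gave -1.69 with an adjusted p of 0.00302, and edgeR on the C57BL/6M plates alone gave -1.52 with an adjusted p of 0.0350. Cd83 had counts in 49.5% of the members and 75.4% of the germinal centre gate cells, against 18.8% of the gate's plasma cells and 48.3% of its activated pre-plasma cells. After thinning of matched cells to 10000 counts the shares were 48.1% and 65.9%. Cd86 transcripts had a log2 fold change of -0.90 ± 1.52 (SE; adjusted p = 0.9996, edgeR), while the CD86 protein was higher on most plates.

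Plasma cell genes were called in neither direction by edgeR, DESeq2 or limma. Of the 20 genes of the plasma cell identity list only 9 passed the filter on low counts, with a median log2 fold change of 0.05. Jchain, which joins the chains of polymeric IgM and IgA, was abundant in both groups, at 827 to 4236 CPM (median 2489) in the members and 1220 to 4761 CPM (median 2667) in the matched cells. Its log2 fold change was -0.06 ± 0.16 (SE; adjusted p = 0.9996, edgeR). Mzb1, an endoplasmic reticulum cofactor of antibody folding, had 0.17 ± 0.24 (SE). Xbp1, the driver of the secretory programme, had 0.42 ± 0.69 (SE) and ran from 7.96 to 617 CPM (median 196) against 0 to 590 CPM (median 163). Among single cells, Xbp1 had counts in 66.0% of members, 42.8% of germinal centre gate cells and 99.2% of the gate's plasma cells.

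The genes that define plasma cells most sharply were too rare to test and each appeared in few members. Irf4 had counts in 4 of 97 members and in 46.1% of the gate's plasma cells. Sdc1, which encodes CD138, had counts in 6.19% of members against 0.593% of germinal centre gate cells and 40.6% of the gate's plasma cells. Fkbp11, a folding enzyme of the secretory pathway, had counts in 7.22%, 0.148% and 73.4%. In the 94 matched germinal centre gate cells Prdm1, Irf4, Sdc1 and Fkbp11 had no counts, which allows a share of up to 3.19% of cells with a count for each. Of 10 plasma cell genes counted together, at least 2 were seen in 29 of 97 members (29.9%), in 59 of 675 germinal centre gate cells (8.74%) and in 119 of the gate's 128 plasma cells. In matched cells this was 29 of 94 against 6 of 94. At least 3 were seen in 7 of 97 members, 5 of 675 cells and 109 of 128 plasma cells. The annotation may itself rest on such transcripts, so the gap between members and plasma cells may follow from it. CD138 protein, by comparison, was higher in the members on all 17 plates.

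By edgeR no secretory chaperone was called, while DESeq2 called Hsp90b1 higher. The endoplasmic reticulum list had 33 genes tested, 23 above 0 and a median of 0.37 against 0.21 over all genes. Hsp90b1, the endoplasmic reticulum chaperone GRP94, ran from 15.9 to 378 CPM in the members (median 247) and from 0 to 383 CPM in the matched cells (median 36.9). It was higher in the members on 14 of 16 plates, with a log2 fold change of 2.69 ± 0.996 (SE) and an adjusted p of 0.9996 by edgeR, against 2.58 and an adjusted p of 0.00213 by DESeq2. It had counts in 54.6% of the members, 32.4% of germinal centre gate cells and 100% of the gate's plasma cells. After thinning, the shares of matched cells were 32.5% and 18.3%.

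Dark zone, cell cycle and identity genes gave no call by edgeR. DESeq2 called Bank1, an adaptor of B cell receptor signalling, lower (-6.11, adjusted p = 4.21e-06). Limma on all cells called Bank1 (-4.25), Cd79a (-0.53), Cd79b (-0.46) and Ms4a1 (-0.65) of the same list lower. It also called Ung of the S phase list lower (-2.93). The median over all genes in that limma fit was -0.45, near the values of Cd79a and Cd79b. The dark zone list had a median log2 fold change of 0.40 over 11 genes tested, the G2 and M phase list 0.39 over 24 genes and the S phase list 0.33 over 24 genes, each against 0.21 over all genes. Bcl6 had a log2 fold change of 0.89 ± 1.64 (SE), and Pax5, the keeper of B cell identity, had -1.76 ± 1.28 (SE). A pool held 3 to 9 cells. The B cell receptor signalling list had a median of -0.16 over 20 genes, and the germinal centre identity list had 0.17 over 20 genes. Ms4a1, which encodes CD20, was at -0.30 ± 0.18 (SE). Ccnd3, the cyclin that sustains dark zone divisions, was higher on 13 of 16 plates at 1.55 ± 0.70 (SE), with an adjusted p of 0.9996 by edgeR.

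Migration receptors and memory genes gave no call by edgeR either. DESeq2 called Cxcr5 higher (3.43, adjusted p = 0.00867) and, of the naive and memory list, Vim higher and Fcer2a lower. Limma on all cells called Cxcr3 higher (3.51) and Tmsb4x lower (-0.73), against a median of -0.45 over all genes of that fit. Of the 19 genes of the migration list 6 passed the filter on low counts, with log2 fold changes above 0 and a median of 0.69. Cxcr5, the receptor for the follicular chemokine CXCL13, was higher on 14 of 16 plates at 3.28 ± 1.36 (SE; adjusted p = 0.9996, edgeR), from 0 to 728 CPM (median 174) against 0 to 260 CPM (median 19.7). Cd38 transcripts had counts in 6.19% of members and 2.52% of germinal centre gate cells, while plate medians of its protein did not overlap between the gates. Single cells did overlap in CD38 protein, at -0.0252 to 3.41 in members and -0.300 to 1.20 in the germinal centre gates. Fcer2a, the low-affinity IgE receptor, was lower on 11 of 16 plates at -4.75 ± 1.43 (SE; adjusted p = 0.774, edgeR) and had counts in 23.7% of members against 47.3% of germinal centre gate cells.

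Immunoglobulin transcripts of several V genes were found together in single members. An Ighv count was seen for 3.56 to 9 different Ighv genes per cell as plate means over the members (median 5.67), against 1.23 to 3.37 (median 2.37) in the germinal centre gates, with no overlap over 17 plates. In matched cells the means were higher in the members on 16 of 16 plates. With each cell thinned to 10000 counts they were 1.75 to 3.75 (median 2.67) against 0.7 to 1.54 (median 1.26) on 13 plates. The most abundant Ighv gene of a cell held a median of 70.9% of its Ighv counts in the members and 98.1% in the germinal centre gates, as medians over plates. For Igkv genes the means per cell were 7.25 to 14.8 against 2.28 to 7.97. Plasma cells of the same gate had counts for a median of 9 Ighv genes and those of the plasma cell gate for 15. A B cell as a rule expresses 1 rearranged heavy chain, and where the further counts come from, and their part in the differences above, was not tested. This comparison was chosen after the values were seen and carries no test. Without immunoglobulin genes, Cd74 and H2-Ab1 were again called lower and no other gene was.

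**Figure D4:**
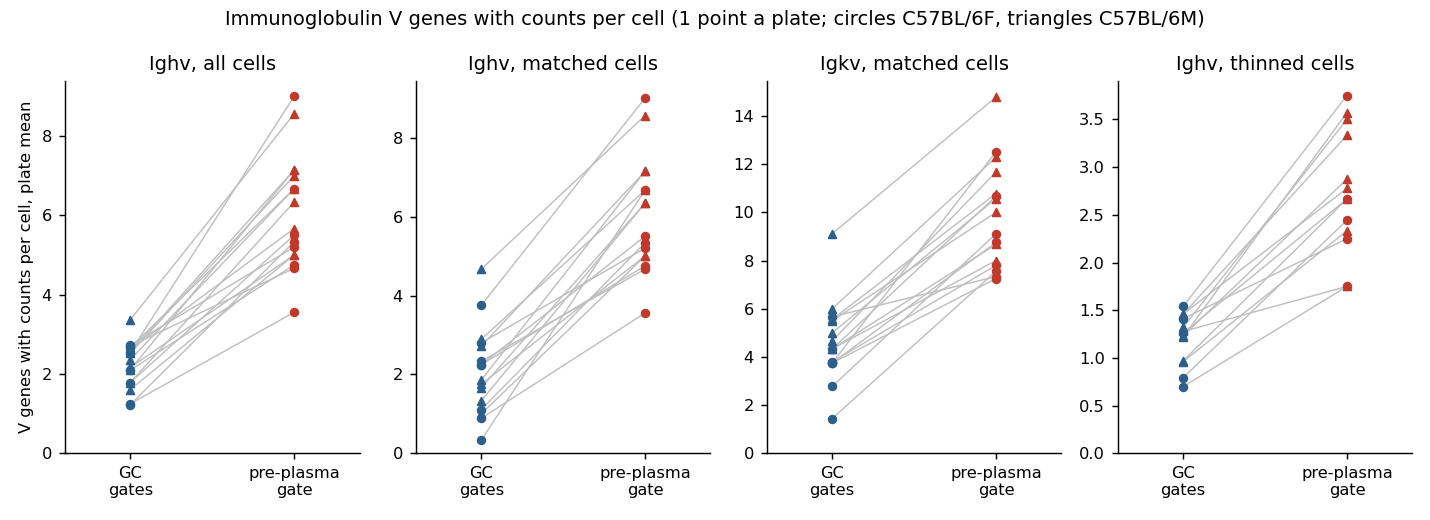
Number of Ighv or Igkv genes with counts per cell, as plate means (y axis), for the germinal centre gates and the pre-plasma gate (x axis), 1 point a plate and lines joining a plate, for all cells, matched cells and cells thinned to 10000 counts. The members lie higher on each plate joined, at 3.56 to 9 Ighv genes against 1.23 to 3.37 over all cells.

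Cell cycle phases were more often S or G2M among the members. Per plate, the share in S or G2M phase by the authors' phase call ran from 44.4% to 100% (median 85.7%) in the members and from 40.9% to 71.1% (median 59.5%) in the germinal centre gates. The means over 17 plates were 78.8% ± 20.4 and 60.4% ± 8.13 (SD), a difference of 18.4 percentage points (95% interval 9.14 to 27.6). It was higher on 12 plates and lower on 4 (two-sided sign-flip permutation test over plates, p = 0.00106, adjusted p = 0.0053 over 5 measures). G2M cells made up 45.4% of the members (35.2 to 55.8%) and 28.7% of the germinal centre gate cells (25.4 to 32.3%). Among light zone cells alone G2M was called in 10 of 23 members (43.5%) and 17.2% of 250 cells. Of these light zone cells, 8 of the 23 members and 6 of the 250 others had under 1000 counts. Among dark zone cells G2M was called in 44.4% of members and 36.6% of the others. In cells matched for state and nearest in total counts the difference was 4.25 points (p = 0.570 by permutation over 16 plates), and in dark zone cells alone 3.09 points (p = 0.684 by permutation over 10 plates). A second phase call deposited by the authors gave 7.72 points (p = 0.155 by permutation), so the difference did not hold in the matched cells, in dark zone cells or under that call. Under the second call G2M was given to 6 of 23 light zone members (26.1%) and 14.8% of the 250 light zone cells.

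**Figure D5:**
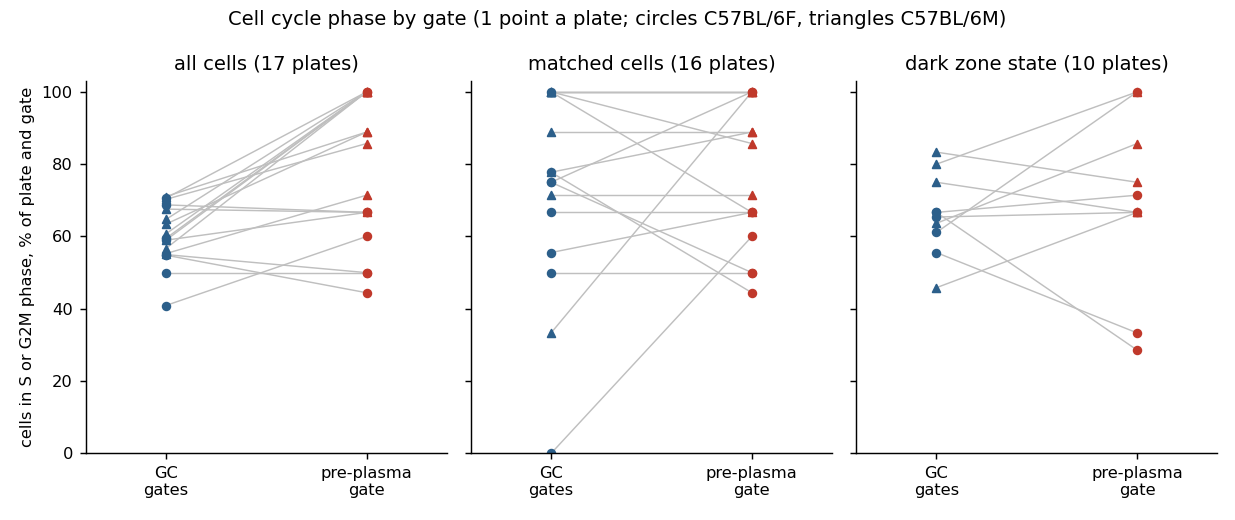
Share of cells in S or G2M phase in % (y axis) for the germinal centre gates and the pre-plasma gate (x axis), 1 point a plate and lines joining a plate, for all cells, matched cells and dark zone cells. Over all cells the members average 78.8% against 60.4%, while in matched cells the difference is 4.25 points.

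Genes detected per cell gave no difference as deposited. Plate medians ran from 244 to 3290 (median 1400) in the members and from 427 to 2240 (median 1297) in the germinal centre gates, a mean difference of 81.7 genes (95% interval -408 to 571; sign-flip permutation p = 0.730 over 17 plates). Thinned to 10000 counts, with 18 members and 52 other cells left out, the members had 1363 ± 616 genes and the others 1080 ± 434 (SD, 13 plates; exact sign-flip permutation p = 0.0132). The unthinned difference was -402 genes in C57BL/6F and 511 in C57BL/6M.

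Antibody genes carried mutations in both groups. A heavy chain was assembled in 55 of 97 members and 367 of 675 germinal centre gate cells. Heavy chain mutations per cell, as plate means, ran from 0.333 to 5.5 (median 3) in the members and from 2.90 to 5.15 (median 3.7) in the germinal centre gates. The mean difference was -0.61 mutations (95% interval -2.07 to 0.85) over 9 plates with at least 3 sequenced cells in both groups, lower on 5 plates and higher on 4 (exact sign-flip permutation p = 0.359, adjusted p = 0.449). Light chain mutations differed by -0.44 (95% interval -1.08 to 0.20; sign-flip permutation p = 0.155 over 12 plates). Heavy chains with no mutation were found in 13 of 55 members (23.6%, interval 13.2 to 37.0%) and 37 of 367 germinal centre gate cells (10.1%, interval 7.20 to 13.6%), counted over cells that share plates and clones. Plasma cells of the same gate had a median of 0 heavy chain mutations and the members a median of 4, as did the germinal centre gates.

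Members and plasma cells shared clones. The 55 members with a heavy chain fell into 45 clones by the authors' clone calls, and 36 of them had a clonemate among other cells. A clonemate annotated plasma was found for 23 of 55 members (41.8%, interval 28.7 to 55.9%) and for 115 of 367 germinal centre gate cells (31.3%, interval 26.6 to 36.4%). As plate means the shares were 36.8% ± 21.0 and 28.6% ± 8.25 (SD), a difference of 8.14 percentage points (95% interval -10.5 to 26.8; exact sign-flip permutation p = 0.340 over 9 plates), within the spread between plates. A clonemate in a germinal centre state of the germinal centre gates was found for 25 of 55 members. IGHV1-72, the V gene typical of the C57BL/6 response to NP, was used by 9 of 55 members and 42 of 367 germinal centre gate cells. Ighm was the constant region with most counts in 30.1% of 93 members, Ighg1 in 40.9% and Ighg2b in 19.4%, against 25.4%, 49.8% and 11.98% of 626 germinal centre gate cells. For 8 of the 55 members a clonemate came from the other sampleID. Within the same sampleID a plasma clonemate was found for 21 of 55 members and 105 of 367 germinal centre gate cells.

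Substitutions in the V gene were then compared between members and their plasma clonemates. Among members with a plasma clonemate in the same sampleID, 11 of 21 shared at least 1 substitution with it and 4 shared at least 3. Among germinal centre gate cells these counts were 60 and 8 of 105. Members had a median of 6 such clonemates and the germinal centre gate cells a median of 2, so the counts were not compared. The clone with the most members used IGHV1-22 and held 22 cells, all in C57BL/6F, of which 4 were members, 9 were germinal centre gate cells in the same states and 9 were annotated plasma, 7 of these sorted in the pre-plasma gate. The stretch from the start of CDR1 to just past CDR2 in IMGT numbering, with gaps removed, is shown for cells of this clone, 5′ to 3′, because it holds the substitutions compared next. It comes from the authors' deposited sequences, and capitals mark bases that differ from the inferred germline.
Inferred germline: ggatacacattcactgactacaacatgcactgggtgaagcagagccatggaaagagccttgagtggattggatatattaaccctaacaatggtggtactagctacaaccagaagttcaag
Dark zone state, pre-plasma gate, plate 5: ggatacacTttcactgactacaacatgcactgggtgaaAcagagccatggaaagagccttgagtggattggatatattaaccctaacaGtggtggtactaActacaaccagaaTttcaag
Light-to-dark zone state, pre-plasma gate, plate 8: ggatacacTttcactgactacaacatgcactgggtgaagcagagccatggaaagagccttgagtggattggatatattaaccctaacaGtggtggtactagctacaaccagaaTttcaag
Plasma annotation, pre-plasma gate, plate 10: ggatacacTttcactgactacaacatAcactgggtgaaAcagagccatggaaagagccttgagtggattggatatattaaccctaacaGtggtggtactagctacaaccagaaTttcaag
Dark zone state, pre-plasma gate, plate 4: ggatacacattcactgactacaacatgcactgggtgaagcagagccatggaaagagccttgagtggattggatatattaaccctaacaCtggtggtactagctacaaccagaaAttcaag
Dark zone state, germinal centre gates, plate 1: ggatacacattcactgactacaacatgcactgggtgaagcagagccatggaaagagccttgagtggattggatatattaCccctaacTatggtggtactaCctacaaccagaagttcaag
Plasma annotation, pre-plasma gate, plate 7: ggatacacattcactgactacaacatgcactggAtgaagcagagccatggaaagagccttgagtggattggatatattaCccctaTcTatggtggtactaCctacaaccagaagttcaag

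In this numbering, which counts from the first base of the V region, the dark zone member of plate 5 and the light-to-dark zone member of plate 8 shared A87T, A185G and G210T. The same 3 substitutions were carried by 2 plasma cells of the pre-plasma gate on plate 10, whose stretches were identical, and G129A was shared by these and the plate 5 member. A87T and G210T were found in 2 members and 2 plasma cells of the clone and in none of its 9 germinal centre gate cells in germinal centre states, while A185G was also found in 1 of those. The dark zone member of plate 4 shown carried A185C and G210A at the same positions, and the dark zone cell of the germinal centre gates on plate 1 shared A170C, A184T and G197C with a plasma cell of plate 7. G197C was found in 5 germinal centre gate cells of the clone. The closest pair across annotations held no member, as a light-to-dark zone cell of the germinal centre gates and a plasma cell of the pre-plasma gate, both on plate 2, had identical stretches with G117C, G188A and G197A and no other V gene substitution. Common descent and repeated mutation at a position cannot be told apart for single substitutions.

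Similar links were seen in 2 further clones. Another IGHV1-22 clone call held 36 cells on 11 plates and joined cells of both sampleIDs. Its dark zone member of plate 16 and a plasma cell of the plasma cell gate on plate 18 were both in C57BL/6M. These cells shared C130A, C171A, G197C and C198T. In a pair of cells that used IGHV1-72, a dark zone member of plate 1 shared C120G, A197G, G210C and G291T with a plasma cell of the pre-plasma gate on plate 8, which carried no other V gene substitution. Members also shared substitutions with germinal centre gate cells, up to 3 with any 1 of them. The most shared with 1 plasma clonemate of the same sampleID was 4 for members and 6 for germinal centre gate cells. The median plasma cell score was 0.0632 in members and 0.0463 in the germinal centre gates, against 0.427 in activated pre-plasma cells and 0.691 in plasma cells of the gate, and the median germinal centre feature score was 0.271, 0.547, -0.641 and -0.508. The plasma cell score did not overlap between these annotations within the gate. It reached 0.247 in members, ran from 0.261 to 0.497 in activated pre-plasma cells and began at 0.500 in plasma cells. Whether the annotation was drawn from such scores is not given, so these gaps may follow from the annotation itself. These scores are the authors' and are given as a description, with no test.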

How the data were processed

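Single-cell counts per gene, the table of cells (index-sort fluorescence, annotations, scores) and receptor sequences were used as deposited. Reads were processed with STAR 2.5.3a, HTSeq 0.9.1 and mm10, per the submitters' processing notes, which give no roles. The count matrix holds whole-number counts for 16047 genes made by the authors' FB5P-seq pipeline, per the labels' protocols. The fraction of spike-in reads and the scores were computed by the authors and deposited, and how each score was made is not given in the sources used here. Fluorescence values carry the asinh transformation that the deposited column names state.

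Members and lists were chosen with earlier results of these data known. Each member was matched to 1 cell of the same plate and state by total count, and counts were summed per plate and gate where at least 3 pairs existed. Genes with at least 10 counts in at least 8 of 32 pools were tested with edgeR 4.0.16 (quasi-likelihood, TMM, plate as block, Benjamini-Hochberg, threshold 0.05) in R 4.3.3. Plates pair the pools because both gates were sorted onto the same plate. Per-cell measures were compared as plate values by two-sided sign-flip permutation, exact or with 100000 resamples (Python 3.11.15, scipy 1.17.1), adjusted over 5 measures, with 95% t intervals of the plate differences. Shares carry exact Clopper-Pearson intervals and a count of 0 an upper limit of 3 counts, both for counting error only. Named genes were those called, a fixed set of B cell and plasma cell genes, and up to 4 genes of lowest p from each list. Alternatives included DESeq2 1.42.0 and limma 3.58.1, other filters and matching, each sampleID, dark zone cells and leaving out each plate. Wells were sorted as single cells and no doublet caller was run, so whether a well held material of more than 1 cell was not tested. The scripts were tested on simulated data. Plates could not be tied to single deposited samples, only to the sampleID. Results for 1 gene are not reported here.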

Additional observations from a re-analysis of the deposited data

Results flagged for a closer look

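The difference in genes detected per cell between the pre-plasma gate and the germinal centre gates was not alike in the sampleIDs. It averaged -402 genes over 8 plates of C57BL/6F and 511 genes over 9 plates of C57BL/6M, a difference of -913 genes (two-sided permutation of the sampleID over plates, p = 0.0471). Adjusted over the 5 measures compared this way, the permutation p was 0.164, so it did not pass the correction. No plate stood apart from its group in the 28 groups examined for single outlying values, of which chance alone flags about 1 in 20.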

How the results depend on the processing

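Against 2 genes called, edgeR called 1419 with all germinal centre gate cells, 5 with no filter beyond 10 counts, 5 on C57BL/6F plates, 4 on C57BL/6M plates and 1 (Iglv1) among dark zone pairs, while limma called 131 and DESeq2 57. Leaving out each plate gave 2 to 3. Without the replicate block, that is without the plate as pairing, 0 genes were called by edgeR (65 at an unadjusted p under 0.05), although the log2 fold changes of Cd74 and H2-Ab1 were -0.50 and -0.51. Cd74 and H2-Ab1 lost their calls in the dark zone pairs and without the block, and kept direction and call in their other 12 alternatives. The share in S or G2M phase missed the threshold with at least 5 cells per plate (11.6 points), in matched cells (4.25), on C57BL/6F plates (9.91), in dark zone cells (3.09) and under the second phase call (7.72, chosen after seeing the data). Leaving out each plate gave 16.8 to 20.2 points. Genes per cell passed the threshold with cells thinned to 10000 counts (283 genes) and with cells of at least 10000 counts (454 genes, chosen after seeing the data). No result turned its direction among those past the threshold. Pools of 3 to 9 cells limit what low genes can show, and 13 members had under 1000 counts.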

Other observations

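Another 6 cells in germinal centre states, 1 dark zone and 5 light zone, were sorted in the plasma cell gate. Their median total was 22003.5 counts and their median number of genes 591.5. Median CD138 fluorescence was 2.52, against 4.09 for the plasma cells of that gate. They had counts for a median of 12.5 Ighv genes. Of the 5 with an assembled heavy chain, the median number of mutations was 0 and the highest 1.

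Plac8, which was chosen after its values were seen, had counts in 22 of 97 members and in 6 of 675 germinal centre gate cells.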
